A study of Mus musculus with 4 samples.

Results

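The genes of insulin-like growth factor (IGF) signalling described here are the ligand Igf1, the receptors Igf1r and Insr, the receptor substrates Irs1 and Irs2, and the binding proteins Igfbp2, Igfbp3, Igfbp4, Igfbp5 and Igfbp7. They were chosen by name as IGF pathway genes that are not imprinted, with earlier results of these data known. All 10 were found among the 55487 gene IDs of the count table. RNA was sequenced from ES-E14TG2a cells, an established mouse embryonic stem cell (mESC) line of WT genotype, at d2 and at d4 of cardiogenic differentiation. Each day has 2 libraries. The d2 libraries hold embryoid bodies grown for 48 h in a medium with N2 and B27 and no serum. The d4 libraries hold bodies re-formed from such cells, 40 h later, in the presence of VEGF (5 ng/ml), Activin A (8 ng/ml) and BMP4 (0.5 ng/ml). Effects of these factors, of time and of the second aggregation cannot be told apart. The cultures were bulk mixtures of 1 line, so a change in the number of cells of a type and a change in RNA per cell cannot be told apart either. The 2 libraries of a day came from independent differentiation experiments by the study's methods.

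IGF1 and IGF2 are secreted growth factors that act on IGF1R, a receptor tyrosine kinase, while insulin acts mainly on the related receptor INSR, and the 2 receptors also form hybrids. The activated receptors phosphorylate IRS proteins, which recruit PI3 kinase and so activate AKT, which restrains FOXO factors and, through the TSC proteins, relieves mTOR. IGF binding proteins (IGFBPs) hold IGFs outside the cell, where they can limit or deliver the ligand, and the protease PAPP-A frees ligand by cutting some of them. Insulin is a standard ingredient of the N2 and B27 supplements.

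The libraries held 11397439 to 16851485 counts, and 14932 genes passed a filter at 0.5 CPM (counts scaled to a common library size, here with TMM factors). Each gene's d4 libraries were set against its d2 libraries in edgeR's quasi-likelihood test, and a gene was called where the p-value adjusted over all these genes (Benjamini-Hochberg) was under 0.01. Of all genes tested, 24.3% were called, 12.9% as higher at d4 and 11.3% as lower, and for 70.9% the libraries of the 2 days did not overlap. Cell identity moved between the days: 9 of 9 tested endothelial cell (EC) markers and 8 of 8 primitive blood markers were higher, 6 of 8 mural and mesenchymal markers were higher and 1 lower, and 7 of 8 pluripotency markers and 4 of 4 tested neuroectoderm markers were lower. The summed level of the EC markers was 25.1 to 28.4 CPM at d2 and 1040.1 to 1398 CPM at d4, and that of the mural and mesenchymal markers 15.9 to 19.3 and 417 to 474 CPM. The pluripotency markers summed to 1167 to 1487 CPM at d2 and 32.1 to 35.3 CPM at d4, where Utf1 had no counts. Of the EC markers Sox7 and Emcn, of the blood markers Alas2 and of the mesenchymal markers Postn had no counts at d2. Emcn was scarce at d4 too, with counts of 2 and 3, and was not tested. Of the endoderm markers, 2 of 3 tested were higher (Sox17 and Cer1), Gsc missed the threshold and 5 were not tested. Sox17, with d2 counts of 0 and 0, and Cer1, with 0 and 2, passed the filter through d4 alone. Afp and Ttr also had no counts at d2. The 8 genes together summed to 1.06 to 1.21 CPM at d2 and 8.65 to 17.9 CPM at d4, where Sox17 alone had 8.12 and 4.06 CPM. The cardiomyocyte markers were mixed, with Tnnt2, Tnni1 and Myl4 higher, Myh6 and Actc1 lower and 2 of 7 not past the test, and summed to 24.1 to 30.01 CPM at d2 and 30.8 to 37.7 CPM at d4. The part of these marker changes in the changes of the IGF genes was not tested.

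Of the 10 genes, 9 were tested. Igf1, Insr, Igfbp4 and Igfbp5 rose to d4 and Igfbp2 fell, so that 5 of 9 were called beside 24.3% of all genes tested. Igf1r, Irs1, Irs2 and Igfbp3 missed the threshold. Igfbp7 lay under the filter on both days. The libraries of the 2 days did not overlap for any of the 9 genes tested, against 70.9% of all genes tested. Igf1 passed the filter through its d4 counts alone, so that its difference between the days was partly set by the filter. The median log2 fold change of the 9 genes was 1.22, and that of all genes tested was -0.03. Because the set was chosen with earlier results of these data known, these shares and medians describe it and do not test it. With 2 libraries against 2, the smallest two-sided p of an exact permutation test of 1 gene is 0.333, so the calls rest on the spread shared across genes. Without either d2 library edgeR called none of the 14932 genes, while DESeq2 still called Igf1 and Igfbp4 without any 1 of the 4 libraries.

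**Figure D1:**
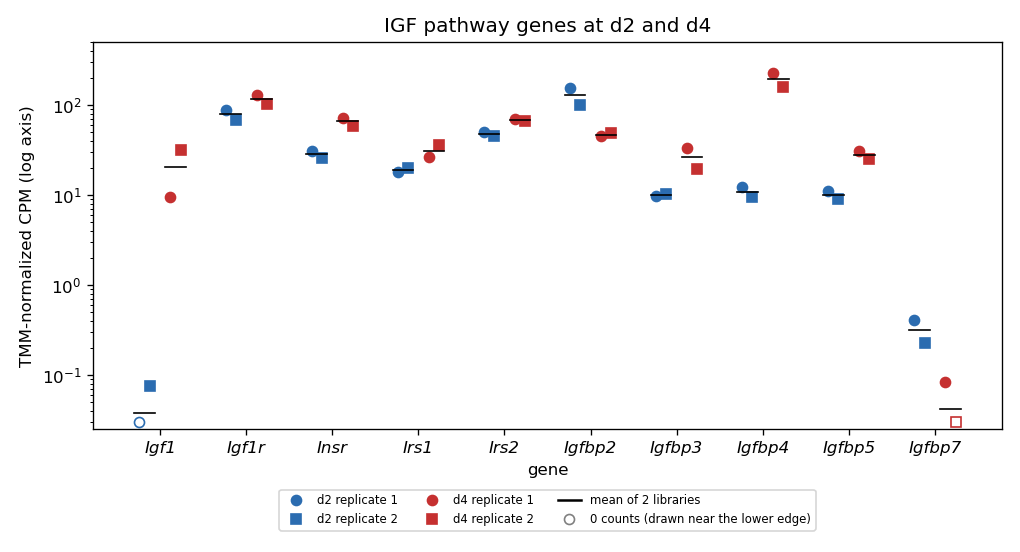
TMM-normalized CPM (log axis) of the 10 IGF pathway genes by library, blue for d2 and red for d4, with circles for replicate 1, squares for replicate 2, bars at the mean of 2 libraries and open symbols for 0 counts. Igf1 goes from 0 and 0.0759 CPM at d2 to 9.65 and 32.1 CPM at d4, Igfbp4 rises and Igfbp2 falls, while Igf1r, Irs1 and Irs2 shift by less.

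Igf1, the liver and mesenchyme growth factor that signals through IGF1R, went from almost no reads to a clear signal. The gene (ENSMUSG00000020053.18) spans chromosome 10 from 87858265 to 87937042 of GRCm38 on the plus strand. It had 0 counts in d2 replicate 1, 1 in d2 replicate 2, 114 in d4 replicate 1 and 546 in d4 replicate 2. In CPM these are 0, 0.0759, 9.65 and 32.1, so both d4 libraries stood far above both d2 libraries but also apart from each other. The 0 in d2 replicate 1 allows up to 0.245 CPM at 3 counts per library. The ratio of normalized counts of d4 over d2 was 582 (95% exact binomial counting interval 104 to 23013), and the gene passed the test (edgeR adjusted p = 0.000758). Such intervals cover counting error only. The d4 libraries differed by 3.33-fold, and base composition moved with the replicate number. In both days genes of low GC content were higher in replicate 2 (Spearman rho across genes of the difference between replicates with GC content -0.71 at d2 and -0.49 at d4). The longest Igf1 transcript has 38.0% GC against a median of 49.7% over the genes tested. For the 388 genes tested within 1 percentage point of it, the median ratio of d4 replicate 2 over d4 replicate 1 was 2.18-fold. Of these genes, 69.8% had a lower ratio than Igf1, as did 97.2% of all genes tested. Genes higher in replicate 1 count as lower here. These ratios come from log2 CPM with a prior count of 2, unlike the 3.33-fold. The part of base composition in the gap of Igf1 was not tested. With the trend on GC content removed from each library, Igf1 kept its call (edgeR adjusted p = 5.22e-05). By distance of log2 CPM over the 4 libraries, the genes nearest to Igf1 were Postn, a matrix protein gene of mesenchyme (distance 0.755), Rab27b, a gene of vesicle traffic (0.897), and Samsn1 (0.963). All had 0 counts in both d2 libraries, and Postn had 13.1 and 29.1 CPM at d4. They describe a like level in these libraries and nothing further.

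Igf2, the second ligand of the pathway and an imprinted gene, is no member of the set, but it rose with Igf1. Its d2 counts were 3 and 1 and its d4 counts 744 and 796, or 0.245, 0.0759, 63.0 and 46.8 CPM, a log2 fold change of 8.36 (standard error 0.45, edgeR adjusted p = 5.70e-05). Like Igf1, it passed the filter through d4 alone. Its d4 libraries lay closer together than those of Igf1. Per kb of exon, the level of Igf2 was 11.3 times that of Igf1 in d4 replicate 1 and 2.52 times in d4 replicate 2. The insulin genes Ins1 and Ins2 had 0 counts in all 4 libraries, which allows up to 0.254 CPM in the shallowest of them.

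The receptors were expressed on both days. Insr (chromosome 8 from 3122061 to 3279617), the insulin receptor, stood at 31.0 and 26.0 CPM in the d2 libraries and at 72.7 and 59.6 CPM in the d4 libraries. This is a log2 fold change of 1.22 (standard error 0.22, edgeR adjusted p = 0.00512), or 2.32-fold, larger than the spread within either day. The call of Insr ended under DESeq2 when d2 replicate 1, d2 replicate 2 or d4 replicate 1 was left out (adjusted p 0.0398, 0.111 and 0.0302), with log2 fold changes of 1.08 to 1.34. Igf1r (chromosome 7 from 67952827 to 68233668), the main receptor of both IGFs, stood at 89.3 and 69.4 CPM at d2 and at 129 and 103 CPM at d4. Its d4 libraries were both above its d2 libraries, but the difference did not pass the test (log2 fold change 0.55, standard error 0.23, edgeR adjusted p = 0.102). Per kb of exon, the level of Igf1r over that of Insr was 2.36 and 2.19 at d2 against 1.46 and 1.41 at d4. Whether Insr changed more than Igf1r was not tested.

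The other receptors of the family, which are not members, were both called. Igf2r, the imprinted gene of the receptor that takes IGF2 into lysosomes without a kinase signal, went from 126 and 94.8 CPM at d2 to 387 and 340 CPM at d4, a log2 fold change of 1.72 (standard error 0.22, edgeR adjusted p = 0.00119). Insrr, an orphan relative of the insulin receptor, stayed scarce, with d2 counts of 5 and 1 and d4 counts of 30 and 48 (log2 fold change 3.45, edgeR adjusted p = 0.0037). It too passed the filter through d4 alone. The log2 fold change of Insrr in edgeR was 5.00 without d2 replicate 1 and 2.65 without d2 replicate 2, and in DESeq2 its call ended without any 1 of the 4 libraries (adjusted p 0.0287 to 0.149). At d4 the mean level per kb of Igf2r was 39.1 ± 3.61 CPM per kb, against 6.92 ± 1.12 for Igf1r and 4.81 ± 0.674 for Insr (SD, n = 2).

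Among the receptor substrates, Irs4 fell while the members Irs1 and Irs2 missed the threshold. Irs1 (chromosome 1 from 82233101 to 82291416) stood at 18.3 and 20.3 CPM at d2 and at 26.8 and 35.9 CPM at d4. Irs2 (chromosome 8 from 10984681 to 11008458) stood at 50.5 and 45.5 CPM at d2 and at 70.2 and 67.0 CPM at d4. For both docking proteins the d4 libraries were above the d2 libraries, and neither passed the test (log2 fold changes 0.70 and 0.51, standard errors 0.24 and 0.19, edgeR adjusted p = 0.0554 and 0.0784). Irs4, a substrate named here from the adaptor list and not a member, went from 42.9 and 48.6 CPM at d2 to 2.29 and 1.59 CPM at d4. It was 23.8-fold lower (log2 fold change -4.57, standard error 0.29, edgeR adjusted p = 8.98e-05). Per kb of exon, Irs4 stood at 0.852 and 1.07 times the level of Irs2 at d2, against 0.0327 and 0.0238 times at d4. Irs3 had 2 to 7 counts per library and was not tested.

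Among the binding proteins, Igfbp4 and Igfbp5 rose, Igfbp2 fell and Igfbp3 missed the threshold. Igfbp4 (ENSMUSG00000017493.12, chromosome 11 from 99041244 to 99054392, plus strand), whose product is a target of PAPP-A, stood at 12.4 and 9.57 CPM at d2 and at 228 and 160.3 CPM at d4. Both d4 libraries stood far above both d2 libraries. The log2 fold change was 4.14 (standard error 0.29, edgeR adjusted p = 0.000113), a 17.6-fold rise, and 92.2% of the genes tested had a smaller change in either direction. Igfbp2 (ENSMUSG00000039323.18, chromosome 1 from 72824503 to 72852474, plus strand), a binding protein of fetal tissues with a preference for IGF2, moved the other way. It stood at 155 and 102 CPM at d2 and at 45.8 and 48.8 CPM at d4, with d2 libraries that differed by more than the d4 libraries did. It was 2.72-fold lower (log2 fold change -1.44, standard error 0.25, edgeR adjusted p = 0.00433). The 3 genes nearest to Igfbp2 in level over the 4 libraries were Usf1, Tnrc6c and Car14, at distances of 0.344 to 0.479. Without d2 replicate 1, the higher of the d2 libraries, the call of Igfbp2 also ended in DESeq2 (log2 fold change -1.12, adjusted p = 0.0899).

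The genes with the largest rise and fall among the binding proteins, Igfbp4 and Igfbp2, are shown by the 250 bases upstream of their RefSeq start (GRCm38.p6, plus strand, chr11:99040994-99041243 and chr1:72824230-72824479). Capitals mark CpG dinucleotides and, in Igfbp4, a TATA box match.
Igfbp4: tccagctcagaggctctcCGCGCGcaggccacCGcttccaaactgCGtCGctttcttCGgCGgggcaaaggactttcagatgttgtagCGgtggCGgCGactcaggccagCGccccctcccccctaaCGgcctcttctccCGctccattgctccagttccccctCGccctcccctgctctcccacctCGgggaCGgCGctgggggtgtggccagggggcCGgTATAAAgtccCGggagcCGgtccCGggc
Igfbp2: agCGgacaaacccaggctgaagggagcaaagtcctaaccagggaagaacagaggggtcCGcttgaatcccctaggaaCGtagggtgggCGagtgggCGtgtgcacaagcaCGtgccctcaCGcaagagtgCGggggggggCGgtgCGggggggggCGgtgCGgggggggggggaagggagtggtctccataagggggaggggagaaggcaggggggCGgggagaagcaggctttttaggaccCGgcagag
The TATAAA of Igfbp4 ends 23 bases before the start, a sequence that 12.4% of 32851 mouse promoter windows hold on either strand and that no other window of these genes holds. The Igfbp4 window holds 22 CpG and that of Igfbp2 14, against a median of 6 over all windows. RefSeq windows were matched for 9 of the 10 genes, with 2 for Igfbp2. The count of CpG was 5 for Igf1, the lowest, and 10 to 42 for the other 9 windows. The Igf1 window lies inside the gene span given above, before a RefSeq start 2846 bases from the annotated gene start. The RefSeq starts of Igf1r, Irs2 and the second Igfbp2 window are 570, 471 and 884 bases from the annotated gene starts. The GATA-type sequences AGATAA and TGATAA, the ETS-type CAGGAAGT and CCGGAAGT and the FOXO-type GTAAACA, searched on both strands, had no match in these 10 windows. They stand in 9.99%, 7.94%, 2.69%, 2.88% and 3.17% of all windows. A match or its lack describes these letters in this window and no binding.

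Igfbp5 and Igfbp3 were low at d2 and higher in both d4 libraries. Igfbp5 (chromosome 1 from 72857932 to 72874884, minus strand), a binding protein found in muscle and mesenchyme, stood at 11.04 and 9.04 CPM at d2 and at 30.7 and 25.4 CPM at d4. Its log2 fold change was 1.48 (standard error 0.24, edgeR adjusted p = 0.00319), and the call ended under DESeq2 without d2 replicate 1, d2 replicate 2 or d4 replicate 1 (adjusted p 0.0215, 0.07 and 0.0236). Igfbp3 (chromosome 11 from 7206086 to 7213923, minus strand), the main IGF carrier of blood plasma, stood at 9.90 and 10.4 CPM at d2 and at 33.5 and 19.6 CPM at d4. Its d4 libraries lay above both d2 libraries, and their spread was wider than that of Igfbp5. Its log2 fold change was 1.38 (standard error 0.31), which missed the threshold in edgeR (adjusted p = 0.0117) and passed in DESeq2 (adjusted p = 0.00175). In DESeq2 that call ended without d2 replicate 1, d2 replicate 2 or d4 replicate 1 (log2 fold changes 1.34, 1.41 and 0.98). Igfbp7 (chromosome 5 from 77349240 to 77408041), which binds IGFs weakly and is a gene of vessels, had d2 counts of 5 and 3 and d4 counts of 1 and 0. The ratio of normalized counts of d4 over d2 was 0.11 (95% exact binomial counting interval 0.00248 to 0.822). It was not tested, and the 0 in d4 replicate 2 allows up to 0.177 CPM. Igfbp1 had 0 counts in all libraries and Igfbp6 1 count in all.

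**Figure D2:**
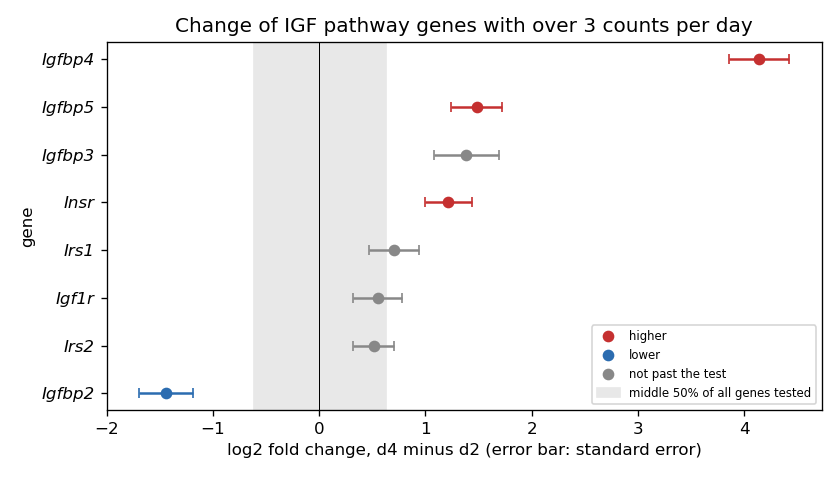
Log2 fold change of d4 minus d2 (x axis) of the 8 IGF pathway genes tested that had over 3 counts on each day, with edgeR's standard error as bars, red for higher, blue for lower and grey for not past the test. The grey band holds the middle 50% of all genes tested, from -0.61 to 0.63, in which the points of Igf1r and Irs2 lie.

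Levels of different genes can be set beside each other per length of exon, as CPM per kb. Summed over Igfbp2, Igfbp3, Igfbp4, Igfbp5 and Igfbp7, the level was 92.1 and 62.4 CPM per kb at d2 against 92.3 and 73.2 at d4, so the days overlapped. The share of Igfbp2 in this sum was 91.2% and 88.5% at d2 and 26.9% and 36.1% at d4. The share of Igfbp4 was 3.05% and 3.47% at d2 and 55.9% and 49.6% at d4. Igfbp4 thus stood at 0.0335 and 0.0392 times the level of Igfbp2 at d2, against 2.08 and 1.37 times at d4. Igfbp3 took 3.43% and 5.32% at d2 and 11.6% and 8.55% at d4, and Igfbp5 1.99% and 2.41% at d2 and 5.54% and 5.78% at d4. Igfbp7 took at most 0.367% in any library. In order of level per kb, Igfbp2 led at d2 with 69.6 ± 20.3 (SD, n = 2), far above Igfbp3 at 3.24 ± 0.115, Igfbp4 at 2.49 ± 0.458 and Igfbp5 at 1.67 ± 0.236, where Igfbp4 and Igfbp3 differ by little more than their spread. At d4 the order was Igfbp4 at 43.9 ± 10.8, Igfbp2 at 25.6 ± 1.14, Igfbp3 at 8.48 ± 3.15 and Igfbp5 at 4.67 ± 0.625.

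**Figure D3:**
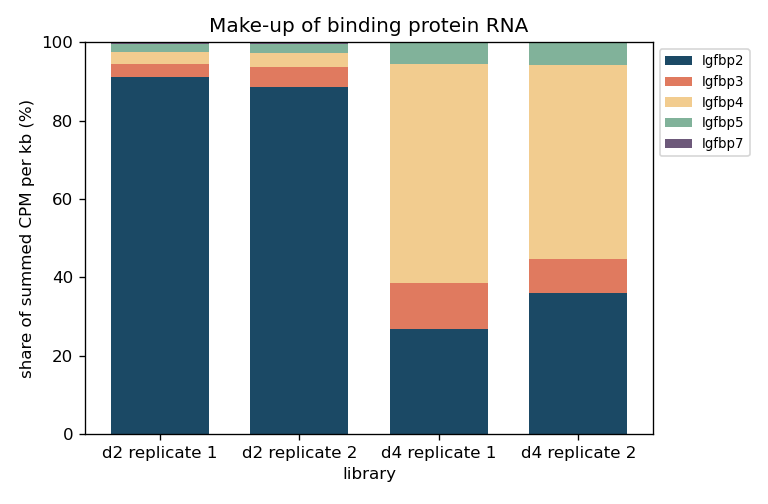
Share of each binding protein gene in their summed CPM per kb (y axis, %) in each library (x axis). Igfbp2 fills 91.2% and 88.5% of the d2 bars, and Igfbp4 55.9% and 49.6% of the d4 bars.

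Igfbp2 and Igfbp5, which moved in opposite directions, are neighbours. They lie on chromosome 1 on opposite strands with their ends facing each other, 5457 bases apart and with no annotated gene between them. Igfbp1 and Igfbp3 form a like pair on chromosome 11, 3539 bases apart, of which Igfbp1 had no counts.

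The genes around the members were read from 8 lists of 76 genes, of which 65 were tested. Of these, 15 rose to d4 (23.1%) and 7 fell (10.8%), while 43 missed the threshold, beside 12.9% and 11.3% of all genes tested. Their median log2 fold change was 0.25. Of the 15 higher genes, 5 had passed the filter through d4 alone, where they were high, and 1 of the 7 lower genes through d2 alone. Outside the cell, Pappa, which encodes PAPP-A, went from d2 counts of 4 and 5 to d4 counts of 23 and 45 (log2 fold change 2.68, edgeR adjusted p = 0.00349). It passed the filter through d4 alone. The inhibitors of PAPP-A also passed the test. Stc1 went from 2.29 and 1.67 CPM to 9.99 and 9.06 CPM, and Stc2 from 16.7 and 13.9 CPM to 39.0 and 33.5 CPM (log2 fold changes 2.26 and 1.24, edgeR adjusted p = 0.00143 and 0.00504). In DESeq2 the calls of Pappa and Stc2 ended without any 1 of the 4 libraries (adjusted p 0.108 to 0.276 and 0.0126 to 0.132), and that of Stc1 without d2 replicate 2, d4 replicate 1 or d4 replicate 2 (0.0326, 0.0147 and 0.0111). Pappa2 and Igfals, which encodes a partner of IGF and IGFBP3 in plasma, were not tested, with 3 and 18 counts in all libraries.

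Of 47 tested genes of the adaptor, PI3 kinase, mTOR and FOXO lists, 6 rose and 6 fell, while 35 missed the threshold. These are shares of 12.8% each, close to the 12.9% and 11.3% of all genes tested. Among adaptors and phosphatases, Grb10, an imprinted inhibitor of both receptors, rose from 249 and 266 CPM to 900 and 804 CPM (log2 fold change 1.73, standard error 0.19, edgeR adjusted p = 0.000541). Sos2, a RAS exchange factor, had a log2 fold change of 1.54 (edgeR adjusted p = 0.00208), and Gab1, a docking protein, of -1.05 (edgeR adjusted p = 0.00995), a call that ended with DESeq2's size factors (adjusted p = 0.0103), with the filter of edgeR's filterByExpr (0.0101) and without d4 replicate 2 (0.0459). Shc1, the adaptor that links receptors to RAS, did not pass (log2 fold change 0.78, edgeR adjusted p = 0.0204).

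In the PI3 kinase and AKT list, 3 of 16 genes were higher (18.8%), 2 were lower (12.5%) and 11 missed the threshold, beside 12.9% and 11.3% of all genes tested. Akt1, a kinase gene downstream of both receptors, stood at 52.3 and 36.4 CPM at d2 and at 131 and 126 CPM at d4, and the regulatory subunit gene Pik3r1 at 13.0 and 16.3 and at 37.9 and 54.4 CPM. Their log2 fold changes were 1.53 and 1.65 (edgeR adjusted p = 0.00256 and 0.00299). Pik3cd, a catalytic subunit mostly of blood cells, had a log2 fold change of -1.53 (edgeR adjusted p = 0.00886), a call that ended with DESeq2's size factors (0.0119) and in limma voom (0.0104).

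In the mTOR list, 1 of 13 genes passed the test (7.69%), beside 24.3% of all genes tested. Deptor, an inhibitor that binds mTOR, fell from 64.2 and 83.9 CPM to 4.15 and 4.88 CPM (log2 fold change -4.03, standard error 0.26, edgeR adjusted p = 9.66e-05). Tsc1, Rps6kb2, Mtor and Akt1s1 had log2 fold changes of 0.74, 0.74, -0.42 and 0.36 and did not pass (edgeR adjusted p = 0.0259, 0.057, 0.165 and 0.246). The FOXO factors, which AKT keeps out of the nucleus, went apart. Foxo4 rose from 82.5 and 66.6 CPM to 321 and 358 CPM (log2 fold change 2.19, standard error 0.21, edgeR adjusted p = 0.000359). Foxo1 fell from 69.8 and 66.1 CPM to 24.0 and 20.5 CPM (log2 fold change -1.61, standard error 0.21, edgeR adjusted p = 0.00118). Foxo3 stood at 70.2 and 66.7 CPM at d2 and at 85.6 and 70.0 CPM at d4, with overlapping days (edgeR adjusted p = 0.509). The kinase genes Gsk3a and Gsk3b had log2 fold changes of -0.15 and 0.51 and did not pass (edgeR adjusted p = 0.635 and 0.0699). In DESeq2 the calls of Grb10, Deptor and Foxo4 held without any 1 library. That of Akt1 ended without d2 replicate 2 (adjusted p = 0.0239), that of Foxo1 without d2 replicate 1 (0.0125) and that of Pik3r1 without d2 replicate 1 or d4 replicate 2 (0.046 and 0.0129). Those of Sos2, Pik3cd and Gab1 held only without d4 replicate 1.

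**Figure D4:**
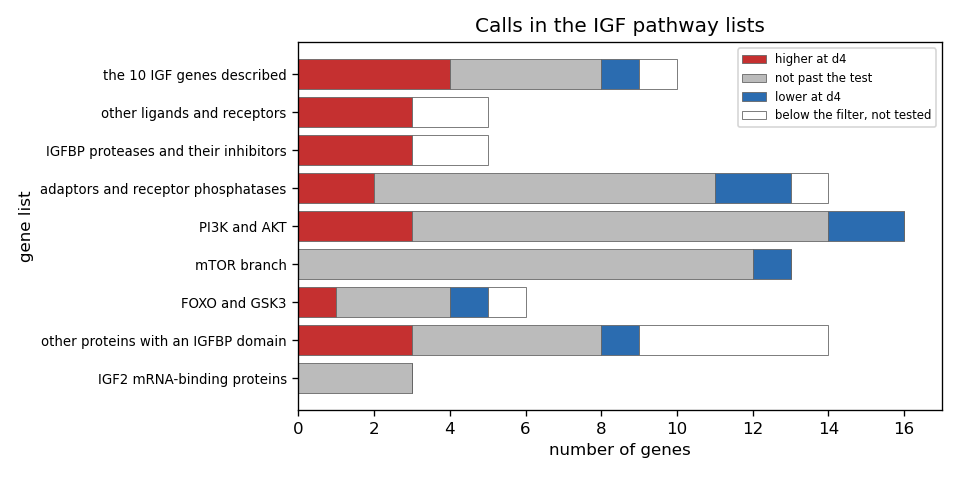
Number of genes (x axis) in each IGF pathway list (y axis) by call: red for higher at d4, grey for a missed threshold, blue for lower at d4 and white for genes below the filter. The list of other ligands and receptors and that of proteases and their inhibitors each have 3 of 3 tested genes higher, beside 12.9% of all genes tested. In each of these lists 2 of 5 genes were not tested. Igf2, Insrr and Pappa passed the filter through d4 alone, so that their direction was partly set by the filter. In the mTOR list 12 of 13 genes did not pass the test.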

How the data were processed

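RNA-seq counts of 4 libraries, 2 at d2 and 2 at d4, were re-analysed. The authors made strand-specific libraries, sequenced them in pairs of 75 bp, trimmed with cutadapt, aligned to mm10/GRCm38 with STAR and counted reads per gene with featureCounts, leaving out reads that map to several places or genes. The deposited values are raw counts per gene, neither filtered nor normalized. The methods name the annotation both as GENCODE M10 and as an Ensembl release. Symbols, positions and exon lengths were taken from GENCODE M21 (GRCm38), in which 55141 of 55487 IDs were found. Levels per kb use the union of annotated exons.

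The filter summed the counts of each day and compared them with 0.5 CPM by a proportion test (one-sided), keeping genes with an adjusted p under 0.05 on at least 1 day. Counts were scaled by TMM factors and tested with R 4.3.3 and edgeR 4.0.16 (glmQLFit, glmQLFTest, day as the only term, two-sided, adjusted p under 0.01). Standard errors came from the coefficient and the F statistic. SD and n refer to the 2 libraries of a day. Fold changes for genes with 1 to 3 counts in a day are ratios of normalized counts. The procedure was tested on counts simulated with the same spread for all genes and no trend on replicate number or GC content. These libraries have such a trend, which the simulation does not cover. The members and lists were chosen with earlier results of these data known. The text names the 10 members, every tested gene of a list with at most 8 tested, otherwise the 5 with the smallest adjusted p, and the 3 genes nearest to the members with the largest rise and fall by Euclidean distance of log2 CPM (prior count 2). Other names were chosen after their values were seen. Some genes that this rule names are not reported here. Alternatives were other scaling factors (DESeq2, upper quartile), filters (none, filterByExpr, 1 CPM in 2 libraries), tools (DESeq2 1.42.0, limma voom 3.58.1) and thresholds, a fit with a term for the replicate number, and the omission of each library in turn. Removal of a loess trend on GC content was added after seeing the data.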

Additional observations from a re-analysis of the deposited data

How the results depend on the processing

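Over the alternatives that kept all 4 libraries, the 4 higher and 1 lower calls among the IGF genes kept their direction and their side of the threshold. Igfbp3 was past the threshold in some of them. With the replicate number as a block, 7 of these genes were higher, Igf1r (adjusted p = 0.00843), Irs1 (0.00193) and Igfbp3 being added, and with the GC trend removed as well, 5 were higher, without Igf1r (0.0198) and Irs1 (0.0121). The deviations of same-numbered libraries correlated at 0.48 across genes, but neither the labels nor the methods say that a number marks a shared experiment. Over all genes, 3478 were then higher and 3496 lower, against 1933 and 1694 in the reported test, and 23 genes of the pathway lists were higher against 15. Without a filter, 2901 genes were higher and 2873 lower, and at an adjusted p under 0.05, 2991 and 2679. With the GC trend removed, 2764 were higher and 2563 lower. With that trend removed and the block, 3265 were higher and 3096 lower, and 23 pathway genes were higher. With DESeq2's size factors, 4 pathway genes were lower against 7.

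Leaving out a library gave 0 to 2269 higher and 0 to 2475 lower genes of all, 0 to 5 and 0 to 1 of the IGF genes, and 0 to 17 and 0 to 7 of the pathway lists. The values of 0 came from edgeR without d2 replicate 1 or without d2 replicate 2, where the spread comes from the d4 pair alone and is taken to hold for the single d2 library. There 6343 and 6012 genes had an unadjusted p under 0.05, and the lowest adjusted p was 0.0181 and 0.0172. DESeq2 without d2 replicate 1, d2 replicate 2, d4 replicate 1 and d4 replicate 2 called 1049, 985, 1248 and 1268 genes of all higher and 730, 722, 1135 and 1457 lower. Of the IGF genes it called 2, 2, 2 and 5 higher and 0, 1, 1 and 1 lower, and of the pathway lists 6, 6, 8 and 7 higher and 3, 3, 6 and 4 lower. Gsk3a, at a log2 fold change of -0.15, ranged from -0.37 to 0.031 in edgeR when a library was left out, and was at 0.023 and 0.016 in DESeq2 without d2 replicate 1 and without d4 replicate 2. It missed the threshold in each. For the named genes of the pathway lists, 88 fits without a library lost a call, 175 left the call as it was and 1 gained one. The cause was not tested in these cases. Depth limits Igfbp7, at 9 counts in all libraries.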

Other observations

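Of 14 genes for other secreted proteins with an IGFBP domain, 9 were tested, of which 3 rose to d4 (33.3%), 1 fell (11.1%) and 5 missed the threshold, beside 12.9% and 11.3% of all genes tested. Ccn4, Htra3 and Kazald1 passed the filter through d4 alone and Ccn3 through d2 alone. Ccn1, a matricellular protein of vessels and mesenchyme, went from 5.48 and 6.00 CPM at d2 to 21.7 and 15.6 CPM at d4 (log2 fold change 1.69, standard error 0.27, edgeR adjusted p = 0.00302). Its call ended in DESeq2 when d2 replicate 1, d2 replicate 2 or d4 replicate 1 was left out (adjusted p 0.0493, 0.0298 and 0.0376). Ccn4, a WNT-responsive relative, went from d2 counts of 2 and 3 to d4 counts of 21 and 30 (log2 fold change 3.11, edgeR adjusted p = 0.00285). The serine protease gene Htra3 had d2 counts of 0 and 1 and d4 counts of 18 and 21, a ratio of normalized counts of 34.4 (95% exact binomial counting interval 5.82 to 1392, edgeR adjusted p = 0.0035). Ccn3 had d2 counts of 13 and 21 and d4 counts of 1 and 0, a ratio of 0.0259 (95% exact binomial counting interval 6.38e-04 to 0.155, edgeR adjusted p = 0.00446). The calls of Ccn4 and Htra3 ended in DESeq2 without any 1 of the 4 libraries, and that of Ccn3 without either d4 library (no adjusted p was given for Ccn3 without a d2 library). Kazald1 had d2 counts of 1 and 2 and d4 counts of 14 and 13 and missed the threshold (edgeR adjusted p = 0.0141). Esm1, Htra4 and Ccn5 had 0 counts in all 4 libraries.

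The RNA-binding proteins that bind Igf2 mRNA were abundant on both days and none of the 3 passed the test. Igf2bp1 stood at 367 and 334 CPM at d2 and at 494 and 437 CPM at d4, and Igf2bp2 and Igf2bp3 lay between 162 and 259 CPM in all libraries. Their log2 fold changes were 0.41, 0.49 and 0.50 (edgeR adjusted p = 0.131, 0.0966 and 0.0735). For each, both d4 libraries lay above both d2 libraries, while the days did not overlap for 70.9% of all genes tested.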
